A study of Mus musculus with 6 samples.

Results

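The genes that open S phase and copy the DNA were followed in tail epidermis of young and aged mice. They were 43 genes of replication licensing, the replicative helicase, the DNA polymerases, the sliding clamp and its loader, nucleotide supply, the G1/S regulators and the histone chaperones. The genes were listed by name for their known roles, but with earlier results of these data known, so no test was run over the set as a whole. Each was found on the array through the RefSeq transcript of its probe, and 42 of the 43 had a probe that 3 or more of the 6 arrays detected well above background, among 14136 named genes that met this condition. The samples were total RNA of wild-type C57BL/6 mouse tail epidermis, lifted from the dermis with EDTA and amplified to cDNA before labelling with Cy3. Of the 6 samples, 3 came from young mice of 8 weeks and 3 from aged mice, aged replicate 1 from an age of 22 months and aged replicates 2 and 3 from 25 months. The labels name no transgene and no treatment of the mice. The labels give neither sex nor whether each sample came from its own animal, so a p-value here reflects only how these samples vary, which may in part be technical. Total epidermis was taken with no sorting named, so a sample can hold all layers together with hair follicle, immune and pigment cells. A change in the number of cycling cells and a change in transcript per cycling cell cannot be told apart in such a sample.

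Before a cell copies its DNA, the origin recognition complex with Cdc6 and Cdt1 loads the Mcm2 to Mcm7 helicase onto chromatin, a step called licensing. Cyclin E and its kinase then allow firing, Cdc45 and the GINS complex switch the helicase on, and polymerase alpha with primase, delta and epsilon synthesise DNA on the PCNA clamp. Many of these genes are targets of the E2F transcription factors, which the retinoblastoma protein restrains until late G1. In healthy epidermis the dividing cells lie in the basal layer and in growing hair follicles, while suprabasal cells have left the cycle.

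The promoters of the set were searched for motifs of cell cycle regulation. A window of 300 bases, from 250 before to 50 after a gene's start, was available from RefSeq (GRCm38.p6) for 35 of the 43 genes. Both strands were searched for 4 short motifs, TTTCCCGC and TTTGGCGC (spellings of the E2F motif), CCAAT (the core of the NF-Y site) and TTTGAA (letters of the cell cycle homology region, CHR). At least 1 of the E2F spellings was present for 11 of the 35 genes (31.4%), against 1.80% of the 27025 genes with a window. CCAAT was present for 60.0% of the replication genes against 41.1% of all genes, and TTTGAA for 14.3% against 20.2%. Of 50 other G1/S and replication genes with a window, 28.0% held an E2F spelling, 54.0% CCAAT and 24.0% TTTGAA, so the E2F share is not particular to the set. Of 27 mitosis genes with a window, 0 held an E2F spelling, 77.8% held CCAAT and 74.1% TTTGAA. None of the 13 E2F matches in the windows of the 35 genes overlapped a CCAAT match. The windows below are shown 5' to 3' on the gene's strand, with E2F letters and CCAAT (or their reverse complements) in capitals. Mcm3 and Mcm6 were chosen for their 2 E2F matches each, Gins3 as a gene with a match and a low unadjusted p, Cdc6 and E2f2 as the genes with a match and no higher mean in aged epidermis, and Slbp as the gene with the smallest p and no match.
Mcm3 (GRCm38.p6, chr1:20820263-20820562, minus strand): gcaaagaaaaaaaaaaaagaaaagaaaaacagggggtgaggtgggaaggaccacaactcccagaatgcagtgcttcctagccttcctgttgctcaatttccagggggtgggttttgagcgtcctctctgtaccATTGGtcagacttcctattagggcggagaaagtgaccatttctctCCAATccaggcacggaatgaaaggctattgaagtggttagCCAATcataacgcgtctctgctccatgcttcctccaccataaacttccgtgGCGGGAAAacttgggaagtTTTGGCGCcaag
Mcm6 (GRCm38.p6, chr1:128359656-128359955, minus strand): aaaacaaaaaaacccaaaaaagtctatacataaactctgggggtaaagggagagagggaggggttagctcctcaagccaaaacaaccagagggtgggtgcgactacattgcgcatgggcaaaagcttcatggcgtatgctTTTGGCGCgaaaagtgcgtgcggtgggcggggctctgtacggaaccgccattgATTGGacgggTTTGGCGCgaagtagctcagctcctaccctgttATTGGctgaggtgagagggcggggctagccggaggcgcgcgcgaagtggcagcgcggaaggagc
Gins3 (GRCm38.p6, chr8:95633309-95633608, plus strand): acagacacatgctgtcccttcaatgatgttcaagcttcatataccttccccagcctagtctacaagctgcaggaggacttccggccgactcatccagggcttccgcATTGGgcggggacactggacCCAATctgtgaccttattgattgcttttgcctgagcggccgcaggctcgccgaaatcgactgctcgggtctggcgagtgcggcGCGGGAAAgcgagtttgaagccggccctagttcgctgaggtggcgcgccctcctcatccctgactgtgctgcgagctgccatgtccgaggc
Cdc6 (GRCm38.p6, chr11:98907901-98908200, plus strand): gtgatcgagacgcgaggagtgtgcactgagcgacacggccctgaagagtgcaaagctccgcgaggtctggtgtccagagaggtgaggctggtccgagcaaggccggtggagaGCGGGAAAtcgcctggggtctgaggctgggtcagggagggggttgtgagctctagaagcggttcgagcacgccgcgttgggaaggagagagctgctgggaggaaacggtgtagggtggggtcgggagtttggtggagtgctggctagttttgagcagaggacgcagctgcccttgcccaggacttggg
E2f2 (GRCm38.p6, chr4:136172024-136172323, plus strand): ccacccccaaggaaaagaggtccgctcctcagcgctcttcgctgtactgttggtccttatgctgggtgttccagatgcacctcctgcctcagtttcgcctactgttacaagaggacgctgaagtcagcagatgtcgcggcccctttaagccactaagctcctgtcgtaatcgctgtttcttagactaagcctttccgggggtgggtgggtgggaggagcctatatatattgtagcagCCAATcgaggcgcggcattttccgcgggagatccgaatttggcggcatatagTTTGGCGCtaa
Slbp (GRCm38.p6, chr5:33652525-33652824, minus strand): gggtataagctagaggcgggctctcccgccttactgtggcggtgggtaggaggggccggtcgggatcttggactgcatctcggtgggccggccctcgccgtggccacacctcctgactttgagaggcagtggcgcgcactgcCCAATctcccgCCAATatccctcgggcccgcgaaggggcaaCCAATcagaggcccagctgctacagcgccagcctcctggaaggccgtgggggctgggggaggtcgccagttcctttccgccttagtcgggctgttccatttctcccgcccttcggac
The 11 genes with an E2F match differed between aged and young epidermis by a median of 0.32 log2 units, and the 24 tested genes without one by 0.40. This comparison of medians is a description, and a missing match says only that these letters are not in the window. Gmnn, Mcm4, Gins1, Gins2, Prim2, Pole, Rfc2 and Ccne2 had no window.

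Most replication genes had a higher mean in aged than in young epidermis, by a small amount that did not pass the test for any of them. Values are log2 signals minus the array's 75th percentile, so that 0 is the 75th percentile of the array, and differences are aged minus young on this log2 scale. Of the 42 tested genes 40 (95.2%) had a higher aged mean, where 63.6% of all tested genes did. Their median difference was 0.36 log2 units, against 0.09 for all tested genes and 0.13 for the brighter part of them, those above the median signal. Of this brighter part 74.3% had a higher aged mean. Fold differences ran from 0.955 to 1.64, and 2 genes, Pola2 and Pole, were at least 1.5-fold higher. After Benjamini-Hochberg adjustment over all features 0 of the 42 passed the threshold of 0.05 (limma, adjusted p from 0.193 to 0.993), where 0.0778% of all tested genes did. At an unadjusted p under 0.05 limma gave 10 replication genes that were higher, which is 23.8% against 11.4% of all tested genes, and 0 that were lower, against 6.3% of all tested genes. The 3 aged values lay above all 3 young values for 9 genes, or 21.4%, close to the 19.5% of all tested genes. In the brighter part this held for 1758 of 7068 genes. The 95% interval of the difference included 0 for 32 of the 42. Over all tested genes, 2498 of 14136 had an unadjusted limma p under 0.05 in either direction.

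**Figure D1:**
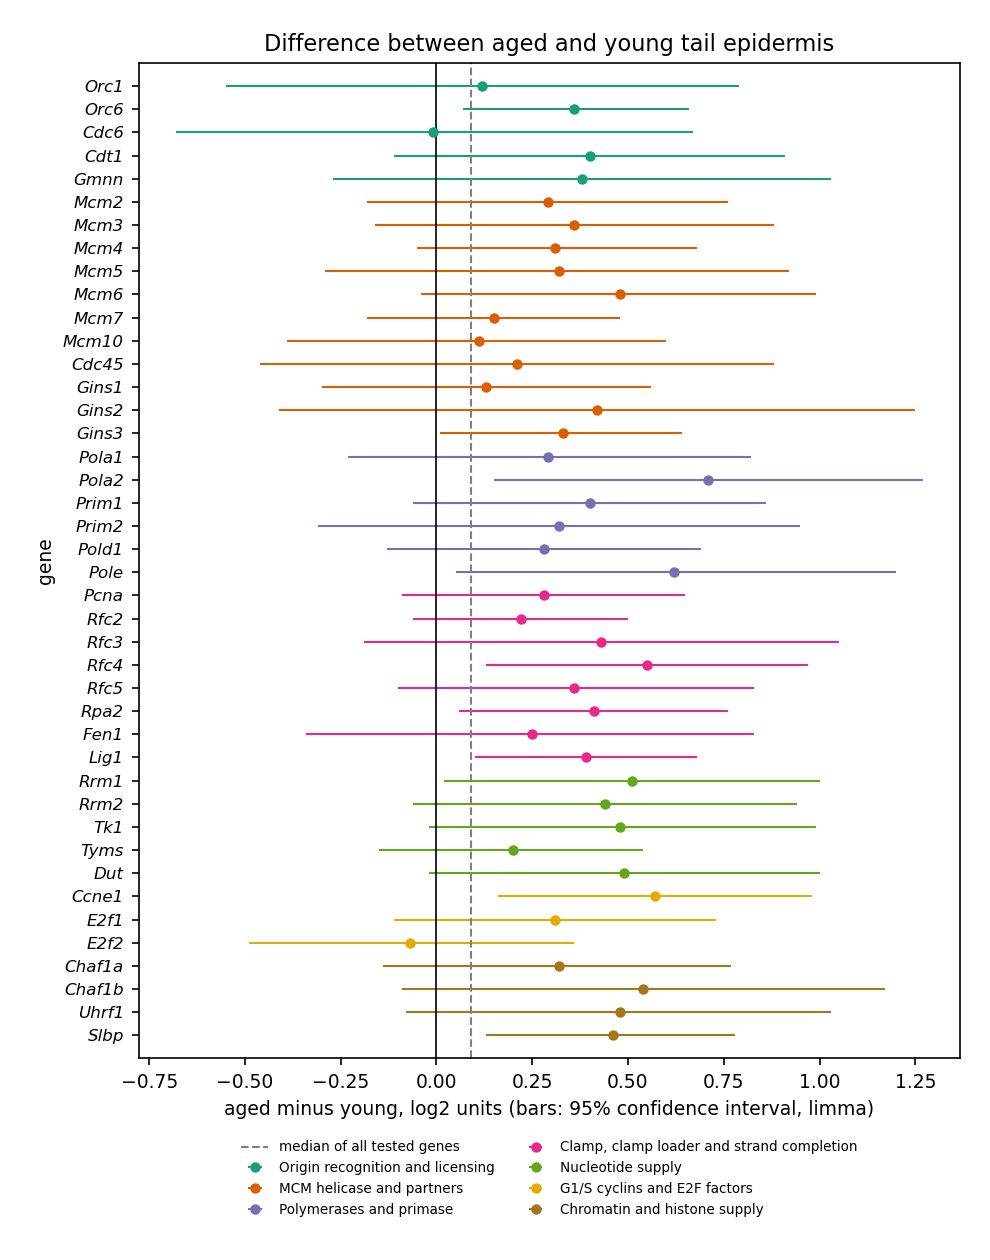
Difference between aged and young epidermis for each of the 42 tested replication genes, in log2 units with limma's 95% confidence interval (3 arrays per group), coloured by role. The dashed line is the median of all tested genes at 0.09; 40 of 42 points lie above 0, and 32 intervals include 0.

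Among the licensing genes Orc6, a subunit of the origin recognition complex, was the steadiest. It stood at 2.56, 2.36 and 2.32 in young replicates 1, 2 and 3 and at 2.81, 2.68 and 2.85 in aged replicates 1, 2 and 3, without overlap of the groups. The difference was 0.36 ± 0.12 (SE, 3 arrays per group, limma adjusted p = 0.219). Orc1, the large subunit, was near the lower limit of detection, detected above background on 1 young and 2 aged arrays only, and so just met the condition for testing. Its values were -3.70, -4.72 and -4.50 in the young and -4.18, -4.06 and -4.33 in the aged samples, with young replicate 1 the highest of all 6. Cdc6, which recruits the helicase to origins, had the same mean in both groups. It was -2.46, -2.62 and -2.73 in young and -3.10, -2.69 and -2.03 in aged epidermis, so that the aged samples enclosed the young ones (difference -0.01 ± 0.28). A second Cdc6 probe was -4.08, -4.31 and -3.88 in young and -3.74, -3.96 and -3.72 in aged epidermis. It differed by 0.29, so the sign for this gene depended on the probe. Cdt1, the partner of Cdc6, and its inhibitor Gmnn (geminin) differed by 0.40 ± 0.21 and 0.38 ± 0.27.

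All 11 genes of the helicase and its partners had higher aged means, from 0.11 to 0.48 log2 units, and 1 of them, Gins3, had an unadjusted p under 0.05. The 6 core subunits Mcm2 to Mcm7, form a ring around the DNA. Mcm6 was 4.26, 3.53 and 3.60 in the young and 4.25, 4.26 and 4.32 in the aged samples. Mcm4 was 3.25, 2.89 and 2.82 in the young and 3.35, 3.35 and 3.20 in the aged samples. Mcm3 was 2.40, 1.71 and 1.70 in the young and 2.21, 2.41 and 2.26 in the aged samples. In each, young replicate 1 stood beside the aged samples, and young replicates 2 and 3 lay below every aged sample. Mcm5 repeated this, with 1.66, 0.78 and 0.84 in the young and 1.45, 1.43 and 1.36 in the aged samples. So did Mcm2, with 0.46, -0.21 and -0.03 against 0.31, 0.47 and 0.32. For Mcm2, Mcm3 and Mcm5 young replicate 1 exceeded at least 2 of the 3 aged samples. Mcm7 varied least, with 3.10, 2.79 and 2.78 in the young and 3.15, 3.01 and 2.96 in the aged samples (difference 0.15 ± 0.14). The differences of the other core subunits lay between 0.29 ± 0.19 for Mcm2 and 0.48 ± 0.21 for Mcm6, with limma adjusted p from 0.299 to 0.520.

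The partners that switch the helicase on were less uniform. Gins3, a subunit of the GINS complex, was 4.96, 4.82 and 4.88 in the young and 5.29, 5.02 and 5.34 in the aged samples, without overlap (0.33 ± 0.13, limma adjusted p = 0.262). Gins1 and Gins2, which belong to the same complex, differed by 0.13 ± 0.18 and 0.42 ± 0.34. Gins2 had the largest excess of young replicate 1 over the mean of the other young samples, 1.12 log2 units. Mcm10, which is needed for helicase activation and binds polymerase alpha, was 0.17, -0.31 and -0.39 in the young and 0.12, 0.00 and -0.34 in the aged samples. The groups overlapped (0.11 ± 0.20). For Cdc45 (0.21 ± 0.28) aged replicates 1 and 2, at -2.68 and -2.64, lay above every young sample, and aged replicate 3, at -3.55, below every one.

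The 6 polymerase and primase genes all had higher aged means, from 0.28 to 0.71. Pola2, the accessory subunit of polymerase alpha, had the largest difference of all replication genes at 0.71 ± 0.23 (1.64-fold, limma adjusted p = 0.212). It was -3.59, -4.37 and -4.32 in young and -3.28, -3.37 and -3.49 in aged epidermis, a dim signal detected above background on 2 of the young and 3 of the aged arrays. The catalytic subunit of polymerase epsilon, Pole, followed with 1.35, 0.53 and 0.80 in young and 1.74, 1.5 and 1.32 in aged epidermis (0.62 ± 0.24, adjusted p = 0.250). Aged replicate 3 lay just below young replicate 1 for this gene. With normexp background correction Pola2 differed by only 0.16 ± 0.09 and Pole by 0.52 ± 0.20. The size and rank of the Pola2 difference thus depended on the background correction. Pola1, the catalytic subunit of polymerase alpha, and Pold1, that of polymerase delta, differed by 0.29 ± 0.22 and 0.28 ± 0.17. The primase subunits Prim1 and Prim2, which make the RNA primers, differed by 0.40 ± 0.19 and 0.32 ± 0.26.

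All 8 genes of the clamp, the clamp loader and strand completion had higher aged means, from 0.22 to 0.55. The groups did not overlap for 4 of these 8, where 19.5% of all tested genes had every aged above every young value. Lig1, the ligase that seals Okazaki fragments, was 3.10, 2.83 and 2.88 in young and 3.34, 3.37 and 3.28 in aged epidermis (0.39 ± 0.12, limma adjusted p = 0.204). Rfc4, a subunit of the clamp loader replication factor C, was 2.25, 1.91 and 1.94 in young and 2.84, 2.54 and 2.35 in aged epidermis (0.55 ± 0.17, adjusted p = 0.209). A second Rfc4 probe differed by 0.41, in the same direction. Rpa2, of the single-strand binding protein RPA, was -0.44, -0.74 and -0.79 in young and -0.10, -0.29 and -0.35 in aged epidermis (0.41 ± 0.14, adjusted p = 0.228). The other loader subunits Rfc2, Rfc3 and Rfc5 differed by 0.22 ± 0.11, 0.43 ± 0.26 and 0.36 ± 0.19. Pcna, the clamp itself and a common marker of proliferating cells, differed by 0.28 ± 0.15, with 3.86 in young replicate 1 against 3.82 to 3.87 in the aged samples. The flap nuclease gene Fen1 differed by 0.25 ± 0.24.

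Nucleotide supply genes differed by 0.20 to 0.51. Rrm1, the large subunit of ribonucleotide reductase, was 1.86, 1.30 and 1.44 in young and 2.27, 2.05 and 1.79 in aged epidermis (0.51 ± 0.20, limma adjusted p = 0.263). Tk1, the thymidine kinase of S phase, was 2.09, 1.48 and 1.65 in young and 2.46, 2.22 and 1.99 in aged epidermis. Dut, which removes dUTP, was 0.37, -0.29 and -0.27 in young and 0.57, 0.41 and 0.31 in aged epidermis. For these 3 genes aged replicate 3 lay below young replicate 1 and above the other young samples. Rrm2, the small subunit of the reductase, differed by 0.44 ± 0.21. Tyms, thymidylate synthase, differed by 0.20 ± 0.14 and was one of 3 replication genes, with Cdc45 and Slbp, in which young replicate 1 was not the highest young sample.

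Of the G1/S regulators Ccne1, which encodes cyclin E1, was 0.51, 0.02 and 0.11 in young and 0.93, 0.77 and 0.64 in aged epidermis, without overlap (0.57 ± 0.17, limma adjusted p = 0.198). A second Ccne1 probe, also detected on all 6 arrays, ran the other way. It was -3.23, -3.44 and -3.80 in young and -3.43, -3.53 and -4.02 in aged epidermis, a difference of -0.17, so the result for Ccne1 rests on which probe is read. Ccne2, for cyclin E2, was well above background on 0 of 6 arrays, at -6.73 to -7.30, and was not tested. E2f1 differed by 0.31 ± 0.17. E2f2, a second activating E2F factor, was 2.65, 2.48 and 2.58 in young and 2.80, 2.19 and 2.53 in aged epidermis. The aged samples again enclosed the young ones, and E2f2 was with Cdc6 one of 2 genes with a difference below 0 (-0.07 ± 0.18).

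Slbp, which binds the stem-loop of replication-dependent histone mRNAs, had the smallest unadjusted p of the whole set, 0.0137 (limma adjusted p = 0.193). It was -0.70, -0.58 and -0.84 in young and -0.14, -0.19 and -0.42 in aged epidermis, and differed by 0.46 ± 0.13. A second Slbp probe differed by 0.28. The chromatin assembly factor genes Chaf1a and Chaf1b, which place histones on new DNA, differed by 0.32 ± 0.19 and 0.54 ± 0.26. Uhrf1, which brings the maintenance DNA methyltransferase to newly copied DNA, differed by 0.48 ± 0.23. The groups overlapped for these 3 genes, with young replicate 1 in the range of the aged samples.

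The young samples differed among themselves in the replication genes by more than the median difference between the groups. Young replicate 1 was the highest of the 3 young samples for 39 of 42 genes (92.9%), where this held for 46.5% of all tested genes. It exceeded the mean of young replicates 2 and 3 by a median of 0.54 log2 units, against 0.05 over all tested genes, with a range over the set from -0.05 to 1.12. The median deviation from the young mean was 0.36 in young replicate 1, -0.21 in young replicate 2 and -0.14 in young replicate 3. In the aged samples it was 0.44, 0.36 and 0.26 for replicates 1, 2 and 3. By this measure young replicate 1 was level with aged replicate 2 and above aged replicate 3, and young replicates 2 and 3 lay below all other samples. Every aged sample exceeded young replicates 2 and 3 for 37 genes (88.1%, against 32.9% of all tested genes). Young replicate 1 exceeded at least 1 aged sample for 32 genes, a count for which the share over all tested genes was not computed. The SD within a group was larger in young than in aged epidermis for 35 of 42 genes (83.3%, against 32.3% of all tested genes), with a median of 0.32 against 0.145. Over all tested genes the order was the other way, with medians of 0.15 in young and 0.21 in aged epidermis.

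**Figure D2:**
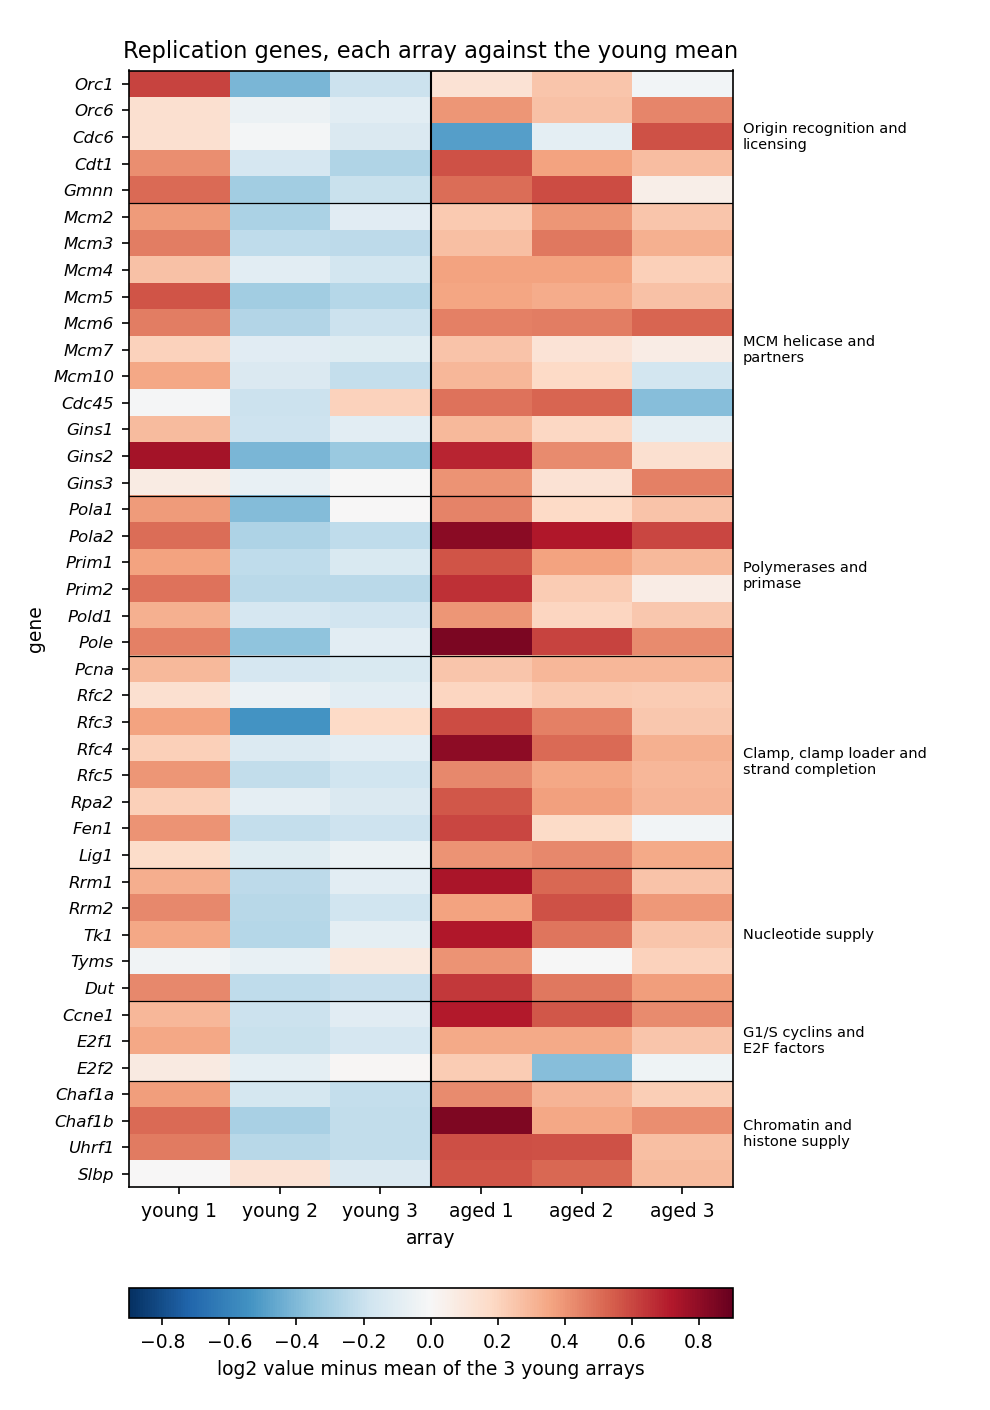
Log2 value of each tested replication gene (rows, grouped by role) on each of the 6 arrays (columns), minus the mean of the 3 young arrays. Young 1 is red for most genes, as are the aged arrays, while young 2 and young 3 are blue. Cdc6, Cdc45 and E2f2 each have an aged array well below the young mean.

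The size of the age difference depended on which young samples were read. Without young replicate 1 the median difference was 0.51 log2 units and 32 genes (76.2%) were higher at an unadjusted limma p under 0.05, where 12% of all tested genes were. Without young replicate 2 the median was 0.24 with 1 such gene (5.37% of all tested genes), and without young replicate 3 it was 0.28 with 0 (5.79% of all tested genes). Leaving out aged replicate 1 or aged replicate 2 gave 5 genes each, with medians of 0.32 and 0.36 (14.2% and 7.96% of all tested genes), and without aged replicate 3 there were 10 (9.11% of all tested genes). After adjustment 0 replication genes passed in any of these fits, also without aged replicate 1, where 5.72% of all tested genes did. With array weights, which down-weight samples that vary more, 26 genes had an unadjusted p under 0.05 (18.1% of all tested genes) and 0 passed, where 5.42% of all tested genes did. The weights were 0.72, 1.62 and 1.92 in young and 0.34, 2.00 and 0.65 in aged replicates 1, 2 and 3. This fit and the one without young replicate 1 discount or drop the highest young sample. Their counts are thus no independent support for an age difference. With the replicate number as a block there were 15 (11.5% of all tested genes), and 0 genes of any kind passed.

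**Figure D3:**
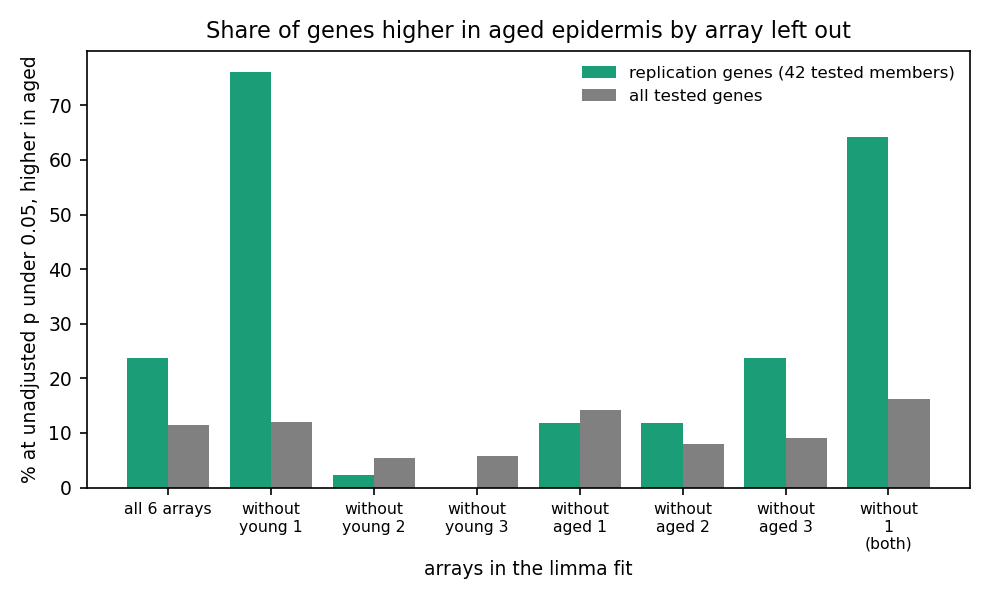
Percentage of genes higher in aged epidermis at an unadjusted limma p under 0.05, with all 6 arrays and with each array, or replicate 1 of both groups, left out (green: 42 tested replication genes; grey: all 14136 tested genes). The green bar is tallest without young 1, at 76.2%, and is at 0 without young 3.

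Young replicate 1 and aged replicate 1 were also the samples that held transcripts of the Y chromosome. Probes of Ddx3y and Eif2s3y were detected above background in both and in 0 of the other 4 samples. Samples that match in this respect were therefore set side by side. Aged replicate 1 exceeded young replicate 1 by a median of 0.13 over the 42 genes and in 30 of them (71.4%, against 52.3% of all tested genes, whose median was 0.02). Aged replicates 2 and 3 exceeded young replicates 2 and 3 by a median of 0.47, against 0.14 over all tested genes. In that comparison of 2 against 2 samples 41 genes were higher (66.5% of all tested genes). At an unadjusted limma p under 0.05, 27 of the 42 (64.3%) were higher, where 16.3% of all tested genes were. After adjustment 0 passed (lowest adjusted p = 0.0614), where 1.52% of all tested genes did. The comparison leaves out young replicate 1, the highest young sample for 39 of the 42 genes, so its counts are no independent support for an age difference. With the Y-linked transcripts as a term in the fit of all 6 samples, 20 genes had an unadjusted p under 0.05 (15.4% of all tested genes) and again 0 passed (lowest adjusted p = 0.0901), where 0.141% of all tested genes did. The difference between both age effects was tested as an interaction in limma. It was below 0, that is smaller in the samples with Y-linked transcripts, for 36 of 42 genes (58.1% of all tested genes), with a median of -0.31 against -0.08 over all tested genes. It was below 0 at an unadjusted p under 0.05 for 8 replication genes (6.29% of all tested genes), while 0 passed after adjustment (lowest adjusted p = 0.322). It rests on a single sample of each age with these transcripts, and aged replicate 1 is also the only sample of 22 months.

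**Figure D4:**
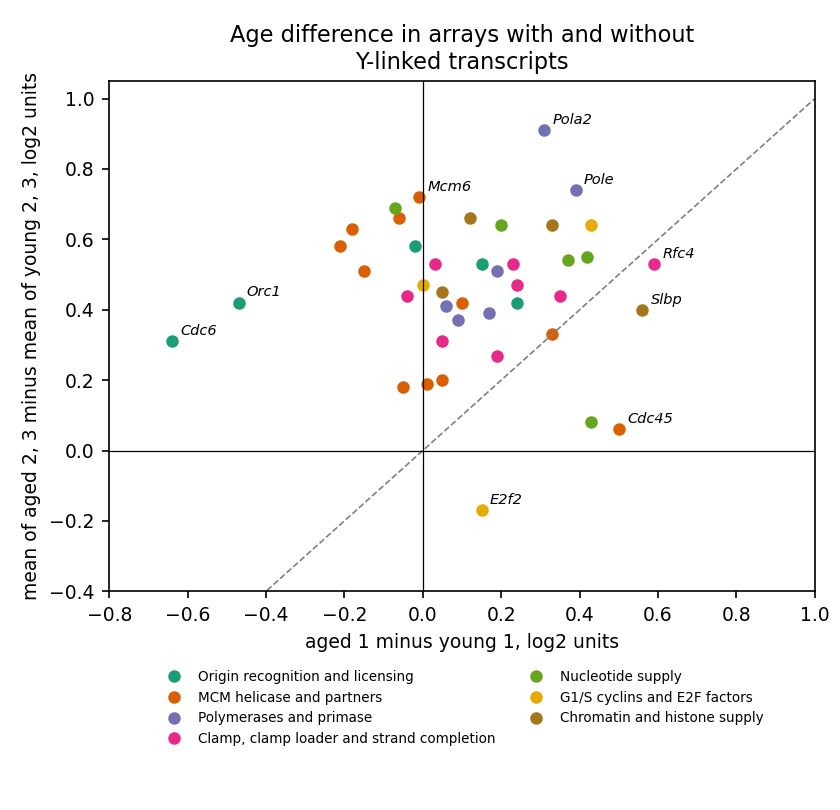
Age difference of each tested replication gene in the 2 samples with Y-linked transcripts (aged 1 minus young 1, horizontal) and in the 4 samples without them (mean of aged 2 and 3 minus mean of young 2 and 3, vertical), in log2 units; the dashed line marks equal differences. Most points lie above the line, with medians of 0.13 and 0.47, and E2f2 is the only one below 0 on the vertical axis.

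Other genes of the same process had a smaller median difference. A list of 63 further G1/S and replication genes had 55 higher aged means (87.3%, against 63.6% of all tested genes) and a median difference of 0.22. At an unadjusted limma p under 0.05, 9 were higher and 3 lower, near the 11.4% and 6.3% of all tested genes, and 0 passed the threshold. Orc4, of the origin recognition complex, was among the lower ones, at -0.49, -0.57 and -0.67 in young and -0.92, -0.98 and -1.09 in aged epidermis (-0.42 ± 0.11, limma adjusted p = 0.177). Rnaseh2a, of the enzyme that removes ribonucleotides from DNA, was higher by 0.38 ± 0.10, Pold4, a small subunit of polymerase delta, by 0.46 ± 0.13, and Fbxo5, an inhibitor of the anaphase-promoting complex, by 0.59 ± 0.17. Their adjusted p lay between 0.181 and 0.194. In Orc4 and Rnaseh2a young replicate 1 stood with the other young samples, unlike in the Mcm genes.

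Mitosis genes act after replication is complete. Of 29 tested, 28 had higher aged means (63.6% of all tested genes) with a median of 0.56. Of these 18 had an unadjusted limma p under 0.05 (11.4% of all tested genes), and 0 passed after adjustment. Aurka, a kinase of spindle assembly, was 0.55, 0.74 and 0.77 in young and 1.51, 1.45 and 1.26 in aged epidermis (0.72 ± 0.13, adjusted p = 0.114). Here young replicate 1 was the lowest of all samples, and every aged value lay above every young value. In Prc1, Plk1 and Cdk1, next in the list by unadjusted limma p, young replicate 1 was the highest young sample. For the mitosis list as a whole the median deviation was 0.30, -0.21 and -0.04 in young and 0.65, 0.68 and 0.32 in aged replicates 1, 2 and 3. Aged replicates 1 and 2 thus stood further from young replicate 1 for mitosis than for replication genes, a comparison that was not tested.

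**Figure D5:**
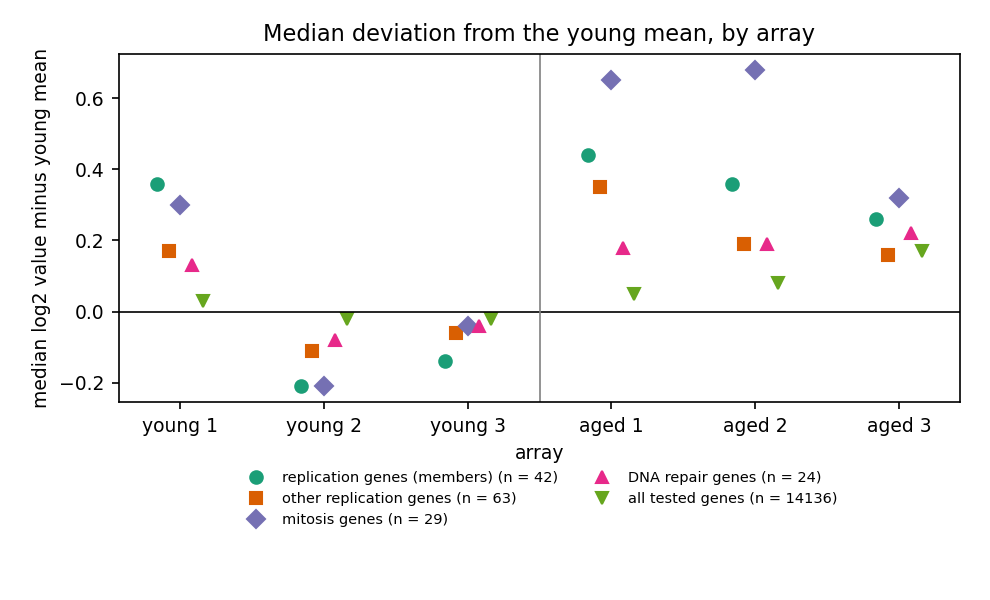
Median deviation from the mean of the 3 young arrays (log2 units, vertical) on each array (horizontal) for the replication genes, 3 other gene lists and all tested genes. On young 1 the replication genes are at 0.36 and all tested genes at 0.03; on aged 1 and aged 2 the mitosis genes are highest, at 0.65 and 0.68.

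DNA repair genes that act outside replication had 19 of 24 higher aged means (79.2%, against 63.6% of all tested genes) and a median of 0.22. Mgmt, which removes alkyl groups from guanine, had the smallest p of the list, with 0.46, 0.17 and 0.25 in young and 1.26, 1.11 and 1.31 in aged epidermis (0.93 ± 0.13, limma adjusted p = 0.0894). The next smallest p belonged to the damage sensors Ddb1 (0.39 ± 0.14) and Xpc (0.43 ± 0.16). Inhibitors of cyclin-dependent kinases hold cells before S phase. All 7 had higher aged means (63.6% of all tested genes), with a median of 0.27. After adjustment 1 passed the threshold, Cdkn2a. It was detected on 3 aged and 0 young arrays, and so met the condition for testing through the aged arrays alone. Aged epidermis exceeded the detection limit of the young arrays at least 5.81-fold (adjusted p = 0.0354 by limma), a call that was lost with the replicate block, where 0 genes passed. As the young values of Cdkn2a were below detection, this p-value is no independent support for a difference. Cdkn2d, a further inhibitor of the INK4 family, differed by 0.60 ± 0.13 (adjusted p = 0.138).

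The samples held the defining transcripts of epidermis, with Krt5, Krt14, Krt10 and Lor well above background on 6 arrays. Of 8 markers of basal keratinocytes 7 had higher aged means (63.6% of all tested genes, and 74.3% of those above the median signal). Of these markers 0 passed the threshold, and their median difference was 0.26. Their summed linear level was 1019 to 1084 times the 75th percentile in young and 1109 to 1246 times in aged epidermis. The summed suprabasal markers overlapped, at 2258 to 2334 in young and 2194 to 2438 in aged epidermis. Markers of the hair matrix, shaft and inner root sheath were lower in aged epidermis for 19 of 19 tested genes of 21, with summed levels of 1504 to 2384 in young and 54.4 to 1247 in aged samples. Of these 15 were lower at an unadjusted limma p under 0.05 (6.3% of all tested genes) and 0 passed the threshold. The median deviation of the hair markers was -0.73, -3.08 and -5.87 in aged replicates 1, 2 and 3. All 8 sebocyte markers were tested. Their median deviation was 0.41, -0.14 and -0.37 in young and 1.07, 0.26 and -1.01 in aged replicates 1, 2 and 3, with summed levels of 31.7 to 55.9 and 27.7 to 96.8. Melanocyte markers summed to 15.4 to 19.4 in young and 5.21 to 14 in aged epidermis, and Langerhans cell markers to 14.1 to 19.7 and 4.63 to 18.4. Transcripts on the lists of other tissues were present in part. Of 8 fibroblast markers 5 were tested, 2 with a higher and 3 with a lower aged mean (63.6% of all tested genes were higher). The higher ones were Dcn (0.21 ± 0.80) and Fbln1 (0.07 ± 0.30). Summed levels of the list overlapped, at 6.16 to 9.19 in young and 3.11 to 21.7 in aged epidermis. Col1a1 and Col3a1 were lower in aged epidermis past the threshold (limma adjusted p = 0.0283 and 0.0467). These calls were lost with the replicate block, where 0 genes passed. Col1a1 was -1.87, -1.41 and -1.31 in young and -4.34, -4.56 and -4.54 in aged epidermis. Col1a1 was detected on 3 young and 2 aged arrays, and Col3a1 on 3 young and 0 aged ones. Col3a1 thus met the condition for testing through the young arrays alone, and its p-value is no independent support for a difference. Dcn, Fbln1 and Col1a2 were detected on all 6 arrays, as were Kdr, Pecam1, Vwf and Cldn5 of endothelium, Cd3e, Lck and Nkg7 of T cells and Acta2 and Tagln of muscle. Krt18 of Merkel cells and Acta1 of muscle were detected on 5 arrays, and Krt8 of Merkel cells and Cd3g of T cells on 3. Krt18 and Krt8 differed by -1.56 ± 0.67 and 0.03 ± 0.60. In contrast, Lum, Pdgfra and Dpt of fibroblasts, Cdh5, Tek, Tie1 and Emcn of endothelium, Cd3d and Cd2 of T cells, Krt20, Isl1 and Piezo2 of Merkel cells and Myh1, Myh4, Ckm, Myh11 and Des of muscle were detected on 0 arrays. Of 4 erythrocyte markers 3 were tested and 0 passed the threshold. Their median deviation was -2.54, 1.87 and 0.58 in young and -3.62, 0.95 and 0.36 in aged replicates 1, 2 and 3, with summed levels of 3.00 to 63.6 and 2.01 to 32.8. Replicate 1 of each group, which held the Y-linked transcripts, was thus the lowest of its group by this median. The part of any of these cell types in the replication gene values was not tested. On the slide both rows held young samples but only the second row held aged ones. With the row as a block the difference rests on young replicate 3 alone, and the median was 0.54 with 3 genes at an unadjusted limma p under 0.05 (3.29% of all tested genes).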

How the data were processed

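RNA of 6 tail epidermis samples was hybridised to 1-colour Agilent arrays, all on 1 slide in 1 scan. Per the file headers, the deposited spot signals are linear intensity values from Feature Extraction 11.5.1.1, and the headers' statistics record background subtraction and spatial and multiplicative detrending. Their 75th percentiles differed between arrays. The authors' deposited table of log2 values, for 33870 probes, matched these signals scaled by the 75th percentile and centred per probe (r of at least 0.9999 on each array); how it was made is not given in the sources used here. Its column medians ran from -0.02 to 0.07.

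Each processed signal was taken to log2, and the 75th percentile of its array (230.2 to 300.3 units before the logarithm) was subtracted. Control spots and outlier spots were left out, 116 to 170 per array, and no spot was saturated. Probes were named through RefSeq accessions (GRCm38.p6 table, 28331 of 55681 probes), since the files carry no symbols. A gene was represented by its brightest probe among those well above background on at least 3 arrays. Of the probes on an array, 50.0% to 54.4% were well above background.

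Groups were compared with limma 3.58.1 in R 4.3.3 (two-sided, no covariate) over 25068 features with Benjamini-Hochberg adjustment at 0.05; the script was tested on simulated data. An exact permutation test of 3 against 3 cannot go below 0.1. Members, lists and tests were chosen with earlier results of these data known. Every gene of the set is named. Values per array are given for Mcm2 to Mcm7, the 12 smallest p, differences below 0 and the 3 lowest, and genes with incomplete detection or discordant probes, and of other lists up to 4 genes by p. Normexp used spot median signals. Fits with Y-linked transcripts as a term or an interaction, and the counts of higher genes and of unadjusted p, were added after seeing the data. The titles number samples 1 to 3 in both groups without saying what the numbers share. Deviations of same-numbered samples correlated across features with r of 0.41, 0.26 and 0.10. Differently numbered samples were not compared, so these values do not establish that the samples are paired. The reported fit ignores the numbers, and the replicate block, which treats them as pairs, is given beside it as an alternative.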

Additional observations from a re-analysis of the deposited data

How the results depend on the processing

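No replication gene passed the adjusted threshold under any of the 18 alternatives, and the median difference stayed above 0, from 0.24 to 0.54. It was 0.30 with quantile normalization, 0.44 scaled to the median and 0.28 with normexp. The number of genes past the threshold over all tested genes was 11 as reported, 7 with quantile normalization, 21 scaled to the median, 3 with detection on all 6 arrays, 1 without a filter, 0 with the replicate block, 766 with array weights, 0 with the slide row as a block, 215 without replicate 1 of both groups and 20 with the Y-linked term. It ran from 0 to 809 when each sample was left out, the highest without aged replicate 1. With 0 called, 2711 genes had an unadjusted p under 0.05 with the replicate block and 858 with the slide row. Replication genes higher at an unadjusted p under 0.05 were 10 as reported, 15 with the replicate block, 26 with array weights, 3 with the slide row, 27 without replicate 1 of both groups and 20 with the Y-linked term, and 0 to 32 with each sample left out. The replicate block changed no call among them. The sign of Cdc6 turned to 0.08 with quantile normalization, 0.07 scaled to the median, 0.14 with the mean over probes, 0.0003 with the authors' table, 0.04 with array weights, 0.12 with the slide row and 0.31 without replicate 1 of both groups, and ran from -0.30 to 0.24 with each sample left out. E2f2 turned to 0.01 scaled to the median and ran from -0.21 to 0.09, Mcm10 from -0.002 to 0.28 and Orc1 from -0.09 to 0.42. The cause was not tested. With 3 arrays a group, the 95% interval of the difference included 0 for 32 of the 42 replication genes, and signals of Orc1 and Pola2 lie near background.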
